A study of Mus musculus with 2 samples.

Results

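Gamma delta T cells carry a T cell receptor of γ and δ chains, and many of those resident in tissues are committed early to making interleukin 17. Single-cell transcripts of 7 genes tied to these cells were followed in mouse liver, out of 13528 genes in the deposited table of named cells. The 7 were chosen by name as genes known from these cells, with earlier results of these data known. Trdc and Tcrg-C1 encode the constant regions of the δ chain and of a γ chain. Sox13 encodes a transcription factor of the γδ lineage, Il17a encodes the cytokine interleukin 17A, and Cd163l1 and 5830411N06Rik encode receptors of the scavenger receptor cysteine-rich family that are known from interleukin 17-producing γδ T cells (also called Scart1 and Scart2). Aqp3 encodes aquaporin 3, a channel for water and glycerol.

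As background, γδ T cells that make interleukin 17 respond to interleukin 1 and interleukin 23 without the priming that αβ T cells need. In the mouse they fall mainly into cells with a Vγ6 receptor, which arise in the fetal thymus and pair Vγ6 with a δ chain built from Trdv4, and cells with a Vγ4 receptor. The liver holds a resident pool of such cells, which reside there beside NKT cells and CD8 T cells.

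CD45+ immune cells were sorted from livers of C57BL/6 mice, and their transcripts were read together with 49 antibody tags on the BD Rhapsody system. TG mice carried dnTGFβRII, a human TGF-β receptor II in dominant negative form that the mouse CD4 promoter drives, and model primary biliary cholangitis. The study names CD4+ and CD8+ T cells as those with TGF-β signalling blocked, and does not name γδ T cells. WT mice were the controls. The labels give 10 weeks of age, while the study's methods name a younger age. Each library was a pool with a further strain, IFN-γ ARE-Del-/- beside TG and P40-/-IL-2Ra-/- beside WT, and the deposited cell table names TG and WT cells alone. Each genotype was therefore 1 library from pooled animals. No test was made, genotype cannot be told apart from capture library in any difference, and the spread between mice is unknown. Intervals are exact 95% intervals and cover counting error only.

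The cell table named 4647 TG cells with 18498477 transcript molecules (UMIs) and 7282 WT cells with 22216379, in 14 cell types over 30 clusters. Median depth was 3298 UMIs in TG and 2653.5 in WT cells. The libraries had 267 cell barcodes in common, of which 36 were named in both libraries. The γδ T class was a single cluster, number 16. It held 192 WT cells, or 2.64% of WT cells (2.28 to 3.03), and 17 TG cells, or 0.366% of TG cells (0.213 to 0.585). Median depth in the class was 2406.5 UMIs in WT and 3122 in TG. The clusters were built from all genes, so the contrast of this class with the others is given as a description. Among markers of other cells, Cd79a (B cells) was in 5.21% of WT and 11.8% of TG cells of the class, Lyz2 (monocytes) in 3.13% and 5.88%, and Ncr1 (NK cells) in 1.04% and 0%, and their part in the differences between genotypes was not tested.

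All 7 genes lie on assembled chromosomes of GRCm38 in the GENCODE M21 annotation. Cd163l1 (chr7:140218267-140231145) and 5830411N06Rik (chr7:140247284-140300736) are neighbours on the plus strand with 16138 bases between them. Il17a lies at chr1:20730905-20734496 on the plus strand and Sox13 at chr1:133382303-133424377 on the minus strand. Aqp3 lies at chr4:41092722-41098183 on the minus strand. Tcrg-C1 lies at chr13:19214103-19217024 and Trdc at chr14:54142851-54148868, both on the plus strand. Trdc overlaps Trdv5 and Gm43434 on the other strand, and the sources used here do not state whether counting used strand.

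Reads were checked for the risk of being shared between related genes, by counting identical windows of 50 bases in the transcripts. Cd163l1 and 5830411N06Rik shared 0 of 4072 windows of Cd163l1, so their counts can be told apart. Il17a and Il17f shared 0 of 1122 windows. Tcrg-C1 shared 17.9% of its windows with Tcrg-C2 and 22.2% with Tcrg-C3, and in the last 500 bases, nearest to the captured end, the shares were 29.0% and 12.9%, so its counts are uncertain against these γ chain genes. It shared 0 windows with Tcrg-C4.

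RefSeq promoter entries on GRCm38.p6 were found for 5 of the 7 genes, and none for Trdc and Tcrg-C1. The 250 bases before the start site of Il17a (chr1:20730655-20730904), 5830411N06Rik (chr7:140247051-140247300, 1 of 3 entries) and Cd163l1 (chr7:140218017-140218266) are shown, all on the plus strand, because these 3 genes had patterns of levels close to each other. Capitals mark AGGTCA, a core motif that many nuclear receptors read, here as its reverse complement TGACCT.
Il17a: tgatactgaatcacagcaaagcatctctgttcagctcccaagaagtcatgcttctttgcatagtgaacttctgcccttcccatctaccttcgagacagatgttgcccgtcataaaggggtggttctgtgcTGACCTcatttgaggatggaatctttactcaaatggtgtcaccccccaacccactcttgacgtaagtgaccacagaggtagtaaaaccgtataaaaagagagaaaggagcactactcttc
5830411N06Rik: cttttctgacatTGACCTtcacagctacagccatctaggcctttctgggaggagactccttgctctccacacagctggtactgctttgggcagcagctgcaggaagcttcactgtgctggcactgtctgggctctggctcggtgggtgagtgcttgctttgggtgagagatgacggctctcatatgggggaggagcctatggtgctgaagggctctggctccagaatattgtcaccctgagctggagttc
Cd163l1: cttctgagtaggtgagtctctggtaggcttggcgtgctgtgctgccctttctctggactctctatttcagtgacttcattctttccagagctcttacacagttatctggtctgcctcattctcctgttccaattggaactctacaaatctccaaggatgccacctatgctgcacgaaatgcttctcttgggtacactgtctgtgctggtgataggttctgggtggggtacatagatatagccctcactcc
The core motif was found once in the Il17a promoter, 120 bases before the start, and once in that of 5830411N06Rik, 238 bases before the start. It was not among the letters shown for Cd163l1, nor in the entries of Sox13 and Aqp3. Among all 32851 promoter entries of 300 bases, 16.3% held AGGTCA on either strand. The Sox motif AACAAT was found in none of the 5 entries and in 10.7% of all. The STAT motif TTCNNNGAA was found once, in Sox13, and in 8.30% of all.

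In WT γδ T cells all 7 genes were above their levels in each of the other T cell classes. The smallest margin, as a ratio, was that of Trdc over CD8αα T cells, whose levels are given below. Levels are UMIs of the gene per 1000000 UMIs of the class (CPM), and shares are the percent of cells with at least 1 UMI. Levels were not compared between genes, since counts are not per length.

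The receptor constant regions were the most widely detected. Trdc stood at 1393 CPM in WT (1295 to 1497), and 71.4% of the 192 cells held it (64.4 to 77.6). In the 17 TG cells Trdc stood at 1720 CPM (1409 to 2078), from 107 UMIs in 9 cells. Tcrg-C1 stood at 1195 CPM in WT (1104 to 1292), in 84.4% of cells (78.5 to 89.2). In TG Tcrg-C1 stood at 1141 CPM (891 to 1439), in 14 of 17 cells. The intervals of the genotypes overlapped for both genes.

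Sox13 was the member most tightly tied to the class. It stood at 367 CPM in WT γδ T cells (317 to 422), in 57.3% of cells, and at 305 CPM in TG (184 to 477), in 7 of 17 cells. The class held 92.9% of all WT Sox13 UMIs, while its cells were 2.64% of WT cells. No other T or NK class held more than 3 Sox13 UMIs in either genotype. In mature B cells, which should lack these genes and stand for the level of free RNA, 0.0669% of WT cells and 0.187% of TG cells held a Sox13 UMI. Among immature B cells, which are deeper, it was in 1.49% of WT and 0.518% of TG cells, from 5 and 2 UMIs.

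Il17a stood at 322 CPM in WT γδ T cells (275 to 374), in 31.3% of cells (24.8 to 38.3). Its UMIs were spread unevenly over cells: the 3 cells with most UMIs held 24.0% of the 171 Il17a UMIs, and 1 cell held 25. No mature B cell held an Il17a UMI in either genotype, while 1 WT and 2 TG immature B cells held 1 each. In TG the filtered table lists Il17a at 0 in every cell. The library file gave 18 Il17a UMIs in 7 TG cells, and 12 of them lay in a single γδ T cell, which also held 26 Trdc and 7 Cd163l1 UMIs. The other 6 cells held 1 Il17a UMI each, and 4 of them also held Cd79a, a B cell receptor component. The resulting TG level of 192 CPM (99.4 to 336) therefore rested on 1 of 17 cells.

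The scavenger receptor genes were detected in similar shares of WT γδ T cells. Cd163l1 stood at 968 CPM (886 to 1055) in 40.6% of cells (33.6 to 47.9), and 5830411N06Rik at 544 CPM (483 to 611) in 41.7% of cells (34.6 to 49.0). In TG Cd163l1 stood at 659 CPM (473 to 894), in 4 of 17 cells, and 3 of these cells held 90.2% of its UMIs. 5830411N06Rik stood at 466 CPM in TG (312 to 669), in 5 of 17 cells. Aqp3 was spread more widely over cell types. It stood at 211 CPM (174 to 254) in 39.6% of WT γδ T cells and at 129 CPM (55.5 to 253) in 3 of 17 TG cells.

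**Figure D1:**
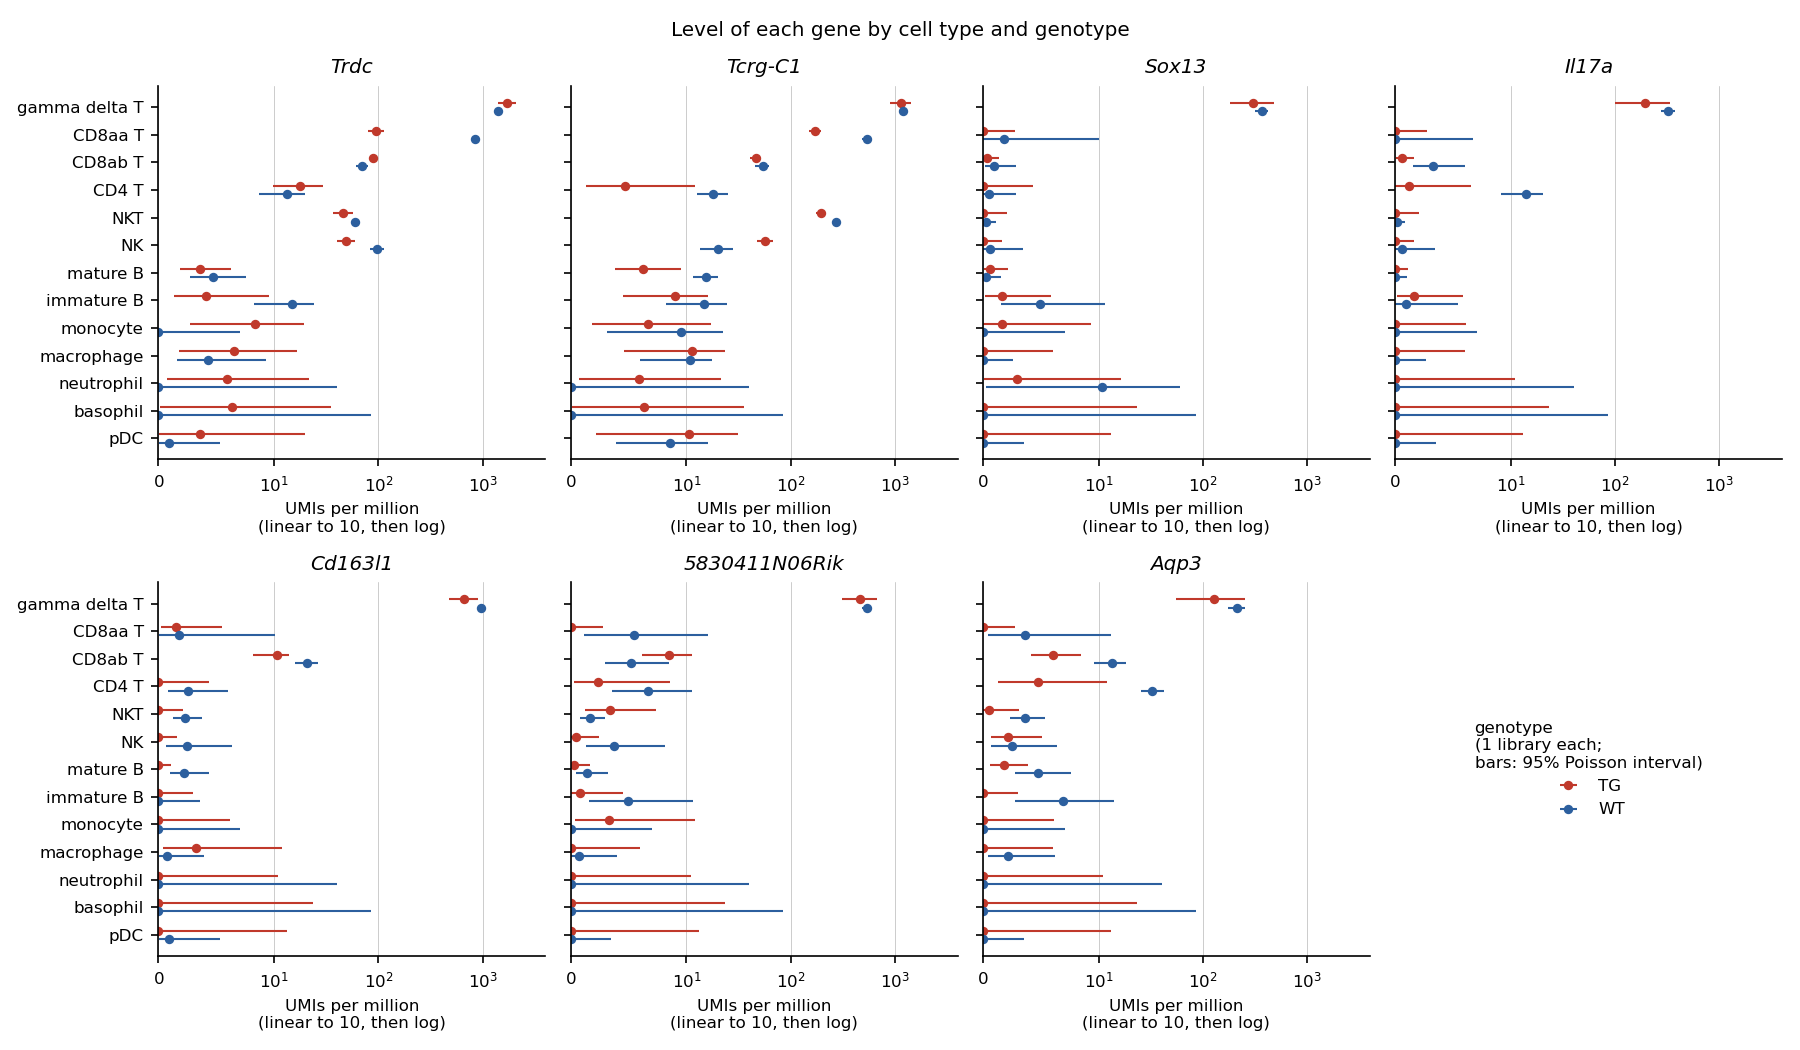
Level of each of the 7 genes (CPM, an axis linear to 10 and logarithmic above) in 13 named cell types (those called other are left out), TG in red and WT in blue, 1 library each. Bars are exact 95% Poisson intervals. For every gene the γδ T class has the highest level in both genotypes. Trdc and Tcrg-C1 extend into CD8αα T, CD8αβ T, NKT and NK cells, and Sox13 does not.

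The TG over WT log2 ratio within the γδ T class was 0.30 for Trdc (-0.00 to 0.60) and -0.07 for Tcrg-C1 (-0.44 to 0.29). It was -0.27 for Sox13 (-1.03 to 0.42) and -0.22 for 5830411N06Rik (-0.83 to 0.33). The ratio of Il17a was -0.74 (-1.72 to 0.10) and that of Aqp3 -0.71 (-1.96 to 0.31). Only the interval of Cd163l1, at -0.55 (-1.05 to -0.09), left out 0. Without the 3 cells with most UMIs of the gene in each genotype the ratio was -0.27 for Trdc, -0.54 for Tcrg-C1, -1.06 for Sox13, -3.23 for Cd163l1 and -2.05 for 5830411N06Rik. This takes 3 of 17 cells from TG and 3 of 192 from WT, so it lowers the ratio by its construction and shows how few TG cells each value rests on. Without cells holding a B cell or myeloid UMI the ratio was 0.15 for Il17a and -1.55 for Cd163l1. With 17 TG cells, the class was below the 50 cells asked of each genotype for these ratios. They are given as values from these cells. The number of cells carrying the genes differed more than their level: 60 WT cells and 1 TG cell of the class held Il17a, and 110 and 7 held Sox13. A smaller share of such cells among the CD45+ cells of TG and a difference in capture cannot be told apart.

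Of the 7 genes, 6 could be counted in the list comparison of TG over WT, since genes listed at 0 in every TG cell of the filtered table, Il17a among them, were left out, and 0 passed a log2 ratio of 1 in either direction. Over the 6782 genes with at least 10 UMIs in both profiles together, 10.0% were higher by more than this and 19.1% lower. Of 23 type 17 genes counted, 4 were higher and 19 lower in TG, with a median log2 ratio of -0.26 beside -0.08 over all genes. Of those counted Tmem176a passed the fold, at -1.21. Il23r, Kcnk1 and Il17f, with 45, 38 and 17 UMIs in WT γδ T cells, were among the genes listed at 0 in every TG cell, and so stand outside these counts and their median. The library file held 5 Il23r and 7 Il17f UMIs in named TG cells of all types, so the zeros of these genes are those of the filtered table, and Kcnk1 was not looked up there. Of 12 interferon-γ type genes, 5 were higher and 7 lower, 1 and 6 of them past the fold, with a median of -0.98, or -0.59 with no minimum of UMIs. Several of these calls lie at the floor. Ifng and Eomes had 0 TG UMIs against 14 in WT each, and were placed by the 0.5 UMIs added. Klrd1 had 1 TG UMI (-6.73 to 1.26), and Cd27, the gene higher past the fold, had 4 (-0.68 to 3.09). Gzmb, Nkg7 and Ccl5, also lower past the fold, had 3, 5 and 22. Ccl5, a chemokine of cytotoxic lymphocytes, had a log2 ratio of -1.58. TMM scaling would shift all these ratios by -0.19.

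The class is described here by listed type 17, receptor, interferon-γ type, αβ and CD3 genes in WT γδ T cells over the other WT T cells. All 7 members were higher by a log2 ratio above 1, where 9.87% of 11767 genes were. The members were chosen by name as genes known from these cells, and the class was built from the same transcripts. Their being higher was therefore set by these choices and is no test of the identity of the class. The log2 ratios were 9.32 for Sox13 (8.25 to 10.65), 7.27 for 5830411N06Rik, 7.13 for Cd163l1 and 6.69 for Il17a. Those of the more widely detected genes were 4.29 for Aqp3, 3.94 for Trdc and 2.66 for Tcrg-C1. The other T classes are pooled here, and CD8αα T cells alone stood closer for Trdc and Tcrg-C1. Of 27 type 17 genes, 26 were higher and 24 passed this fold, with a median log2 ratio of 3.35 beside -0.07 over all genes. Il1r1, the receptor for interleukin 1, had a ratio of 8.49. Il23r, the receptor for interleukin 23, had 7.69. Blk, a Src family kinase of B cells and γδ T cells, had 7.09, and Cd9 was level at -0.03 (-0.88 to 0.71).

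The receptor genes other than the members were less uniform. Of 14 listed variable and constant genes 8 were in the table, and all 8 were higher in γδ T cells, 5 of them past the fold. The highest were Trdv4 at 6.36 and Tcrg-V6 at 5.78, the segments of the Vγ6 receptor, while Tcrg-C2 was at 1.71 and Tcrg-C4 at 0.91. Tcrg-C3, also past the fold, had only 3 UMIs in γδ T cells (-1.07 to 2.99). Trdv2-2 had 1 UMI there (-4.79 to 3.31), so both intervals hold 0. Of 13 interferon-γ type genes all 13 were lower, beside 6414 of all 11767 genes. Of the 13, 12 passed the fold, with a median of -2.30 beside -0.07 over all genes. The share of all genes lower past the fold was not counted. Ifng itself was at -3.20 and Xcl1, a chemokine of NK and CD8 T cells, at -5.70. The 6 αβ genes were also all lower, Trac at -1.86, while 3 of 4 CD3 genes were higher and 1 lower, with a median of 0.03.

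**Figure D2:**
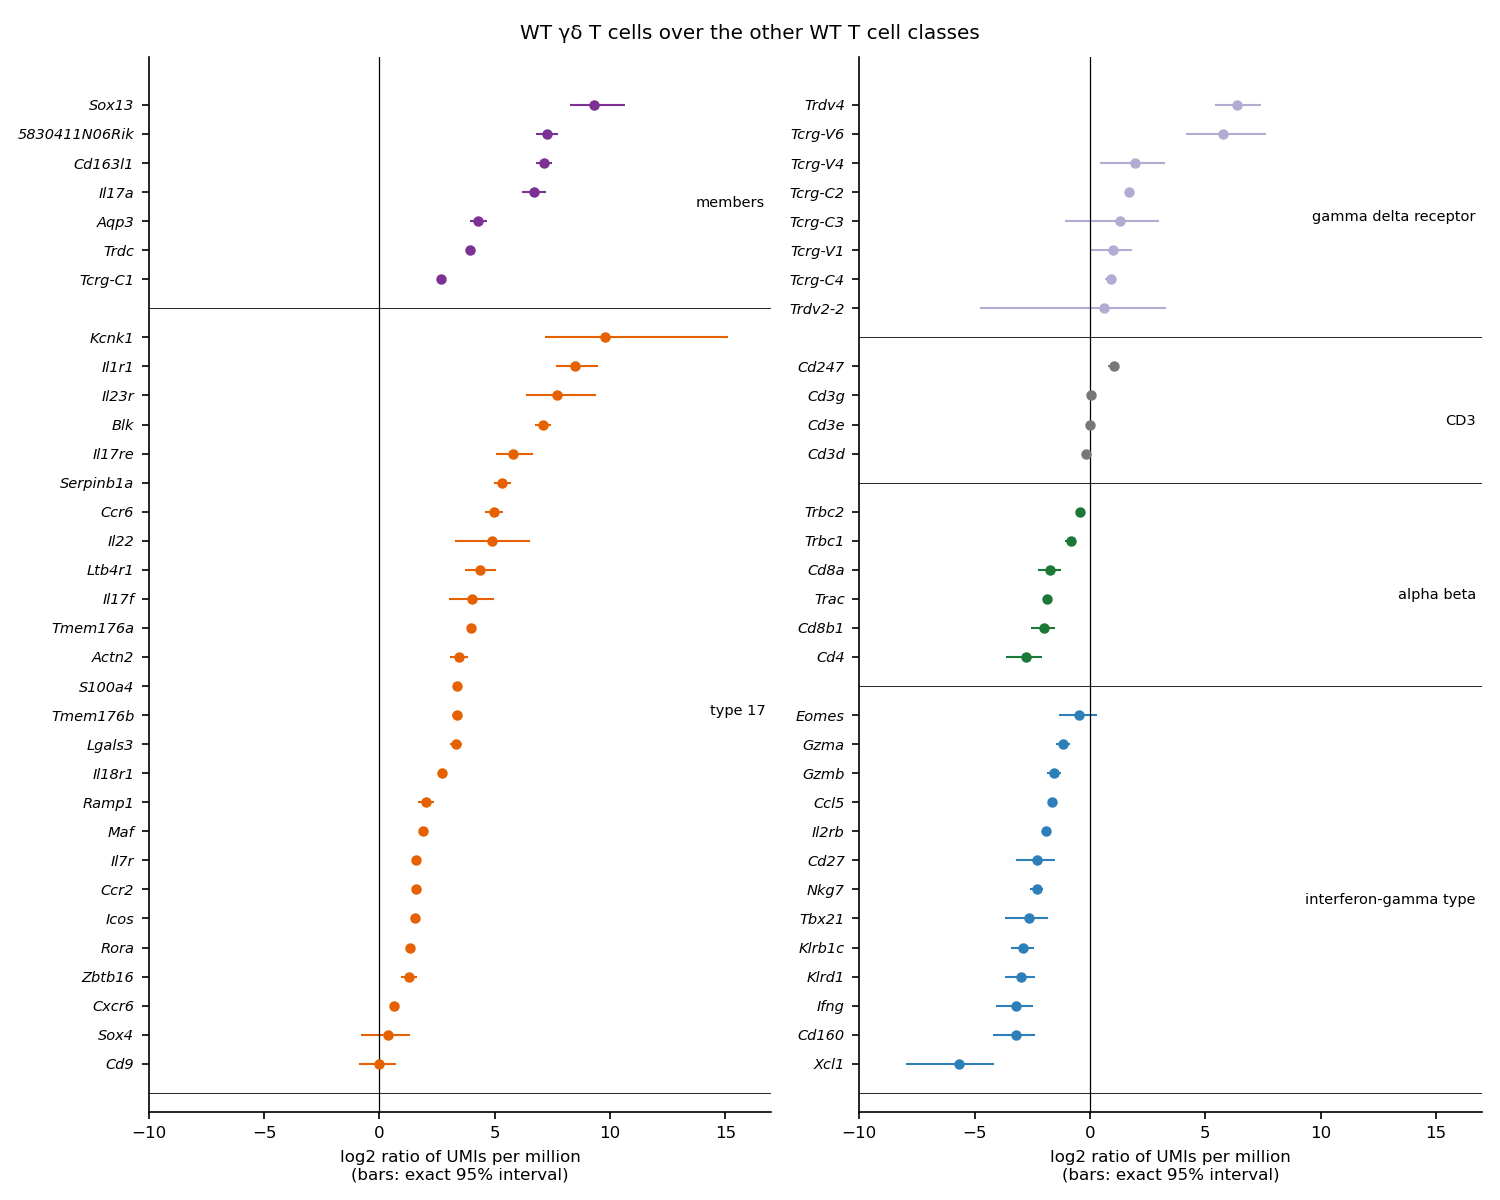
Log2 ratio of CPM in WT γδ T cells over the other WT T cell classes, with exact 95% intervals, for the 7 members and 5 fixed lists. Members and type 17 genes lie to the right of 0 except Cd9, and αβ and interferon-γ type genes lie to the left. The 4 CD3 genes lie close to 0 except Cd247, at 1.03.

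Not every cell in the class carried a δ chain transcript. Of the 192 WT cells, 55 held no Trdc UMI, at a median depth of 3274 UMIs against 2201 in the 137 cells with one. Surface TCRβ, given as the deposited antibody value on a natural log scale, had a median of 1.87 in the cells without Trdc and 0.85 in those with it. NK cells, which have no T cell receptor, had 0.80, and CD4 T cells had 3.03. Trac, the α chain constant region, stood at 928 CPM in the cells without Trdc and at 280 CPM in those with it. On both values the cells without Trdc lay nearer to the αβ T classes. Il17a was found in 21.8% of the cells without Trdc (11.8 to 35.01) and in 35.04% of those with it (27.1 to 43.6).

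In TG the class also held cells with and without Trdc. All 9 TG cells with Trdc held Tcrg-C1 and exactly 1 of the scavenger receptor genes, Cd163l1 in 4 cells and 5830411N06Rik in 5. None of the 8 TG cells without Trdc held either scavenger gene or Sox13, and 5 of the 8 held Tcrg-C1. Median TCRβ was 0.92 in the 9 cells and 2.03 in the 8. Trac was found in 7 of the 9 and in all 8 of the others. In WT the cells without Trdc were not devoid of these genes: 34.5% held 5830411N06Rik (22.2 to 48.6), beside 44.5% of those with Trdc (36.0 to 53.3), and 23.6% held Sox13.

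Within WT γδ T cells most cells carried several members. Of the 192 cells, 9 held none of the 7, 36 held 3, 46 held 4, 49 held 5, 18 held 6 and 1 held all 7. Sox13 was in 70.8% of the cells with Trdc and 23.6% of those without. Cd163l1 followed Trdc most closely. It was in 54.7% of the cells with Trdc (46.0 to 63.3) and in 5.45% of those without (1.14 to 15.1). Tcrg-C1 was in 92.7% and 63.6% of the same cells.

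The scavenger receptor genes kept apart. Of 78 cells with Cd163l1 and 80 with 5830411N06Rik only 8 held both, so 5830411N06Rik was in 10.3% of Cd163l1-positive cells (4.53 to 19.2) and in 63.2% of Cd163l1-negative cells (53.6 to 72.0). With at least 2 UMIs asked of each gene the first share was 2.67%. Among the 17 TG cells of the class none held both, but only 4 held Cd163l1 and 5 held 5830411N06Rik, too few to read this. The γδ T class was then split by these genes, a choice made after this pattern was seen, into 70 cells with Cd163l1 only, 72 with 5830411N06Rik only, 8 with both and 42 with neither. Median depth was 2306.5 and 2300 UMIs in the first pair of groups.

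The receptor transcripts of these groups differed. Trdv4 was found in 26 of the 70 cells with Cd163l1 only, or 37.1% (25.9 to 49.5), and in 0 of the 72 with 5830411N06Rik only (0 to 4.99). Tcrg-V6 was found in 14.3% (7.07 to 24.7) and in 0 of 72 (0 to 4.99). Tcrg-V1 was in 10.0% and 5.56% of cells, with overlapping intervals. Tcrg-V4, the segment of the other known interleukin 17 lineage, had only 1 UMI in the first group and 3 in the second, so its use could not be read at this depth. Trdv4 overlaps Gm30275 and Tcrg-V6 overlaps Gm31887 on the other strand.

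The level of the members also differed between the groups. Trdc stood at 2572 CPM with Cd163l1 only and 1005 CPM with 5830411N06Rik only, and Tcrg-C1 at 2166 and 859 CPM. Il17a was found in 48.6% (36.4 to 60.8) and 20.8% of cells (12.2 to 32.0), at 512 and 182 CPM. Sox13 and Aqp3 had log2 ratios of 0.45 and 0.30. Among 5524 genes counted, 8.71% were higher in the Cd163l1 group by a log2 ratio above 1 and 7.87% lower. Of the 5 members that did not define the split, 3 were higher past this fold: Trdc at 1.36, Tcrg-C1 at 1.33 and Il17a at 1.49.

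Of the type 17 list, 24 genes were counted over these groups, with 17 higher and 7 lower in the Cd163l1 group. The median log2 ratio was 0.45 beside 0.10 over all genes. In each direction 2 of the 24 passed the fold, a share near the 8.71% higher and 7.87% lower over all genes. The higher pair was Rora, a nuclear receptor, at 1.07 and Ltb4r1, a leukotriene receptor, at 1.81. The lower pair was Lgals3, which encodes galectin 3, at -1.96 and Ramp1, a subunit of the receptor for calcitonin gene-related peptide, at -1.54. Lgals3 was in 20.0% (11.4 to 31.3) and 48.6% of cells (36.6 to 60.7). Ccr6, a chemokine receptor of type 17 cells, was in 25.7% (16.0 to 37.6) and 51.4% (39.3 to 63.4). By level its log2 ratio was -0.50 (-1.16 to 0.14), an interval that holds 0. For Blk the level ratio was 0.998 (0.67 to 1.33), while the intervals of its shares overlapped. Il23r was in 27.1% (17.2 to 39.1) and 15.3% of cells (7.88 to 25.7), with overlapping intervals.

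**Figure D3:**
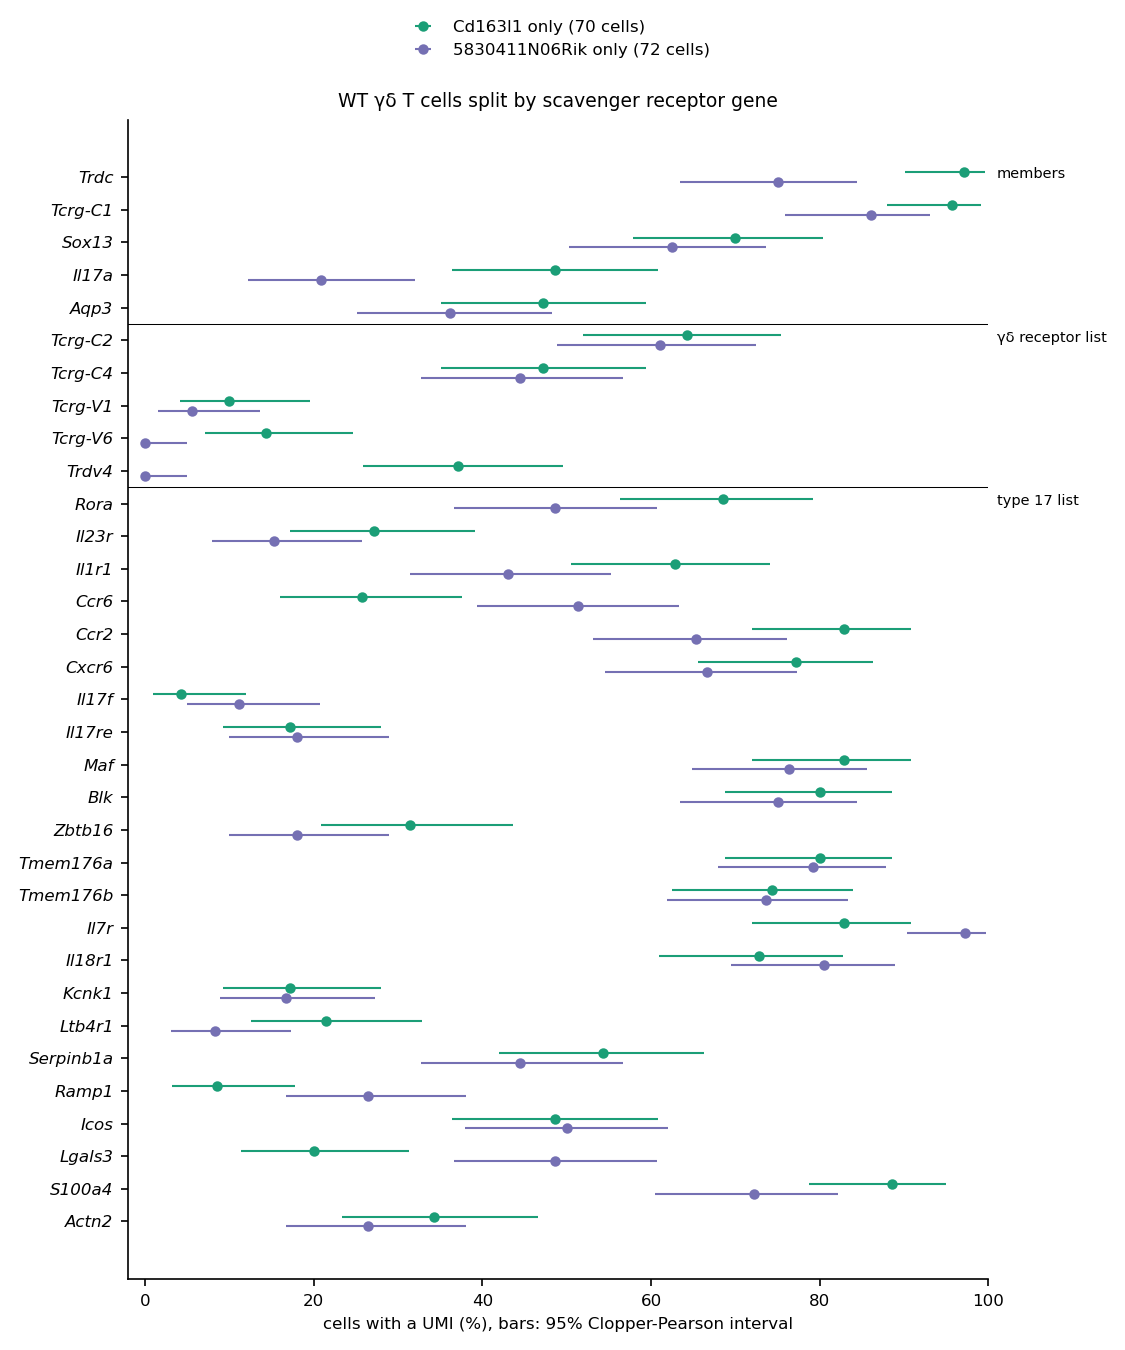
Percent of WT γδ T cells with a UMI, with 95% Clopper-Pearson intervals, in 70 cells with Cd163l1 only (green) and 72 with 5830411N06Rik only (purple), for members and listed genes found in at least 10% of the cells of either group. The intervals of Trdc, Trdv4, Tcrg-V6, Il17a, Lgals3 and Ccr6 do not overlap between the groups, while those of Sox13 and Blk do. These are shares of cells. By level, the interval of the log2 ratio held 0 for Ccr6 and not for Blk.

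Surface proteins set the groups apart by degree. Median CD103, the αE integrin that binds E-cadherin, was 1.47 with Cd163l1 only, 2.24 with 5830411N06Rik only and 2.20 with neither. Every other WT T, NK or B class shown had a median of at most 0.36. Median CD5 was 1.88, 1.45 and 2.64 in these groups, and median TCRβ 0.81, 0.96 and 1.83. CD44 was high in each, between 4.16 and 4.46. The 42 cells with neither gene held Trdc in 19.0% (8.60 to 34.1), Trac in 76.2% and Ramp1 in 61.9% of cells. With Trdc in few and Trac in most of them, the deposited class name is uncertain for these 42 cells. Icos, a costimulatory receptor, stood at 1415 CPM in them.

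In TG γδ T cells median CD103 was 0.47 (quartiles 0 and 1.18), against 2.04 in WT (quartiles 1.05 and 2.79). In mature B cells CD103 had medians of 0.31 in TG and 0.33 in WT. The CD4 antibody shows that values are not on one footing between libraries, since its median in mature B cells was 0.80 in TG and 0.35 in WT. The CD103 value of TG rested on 17 cells, with 0.38 in the 4 cells with Cd163l1 only and 1.18 in the 5 with 5830411N06Rik only.

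**Figure D4:**
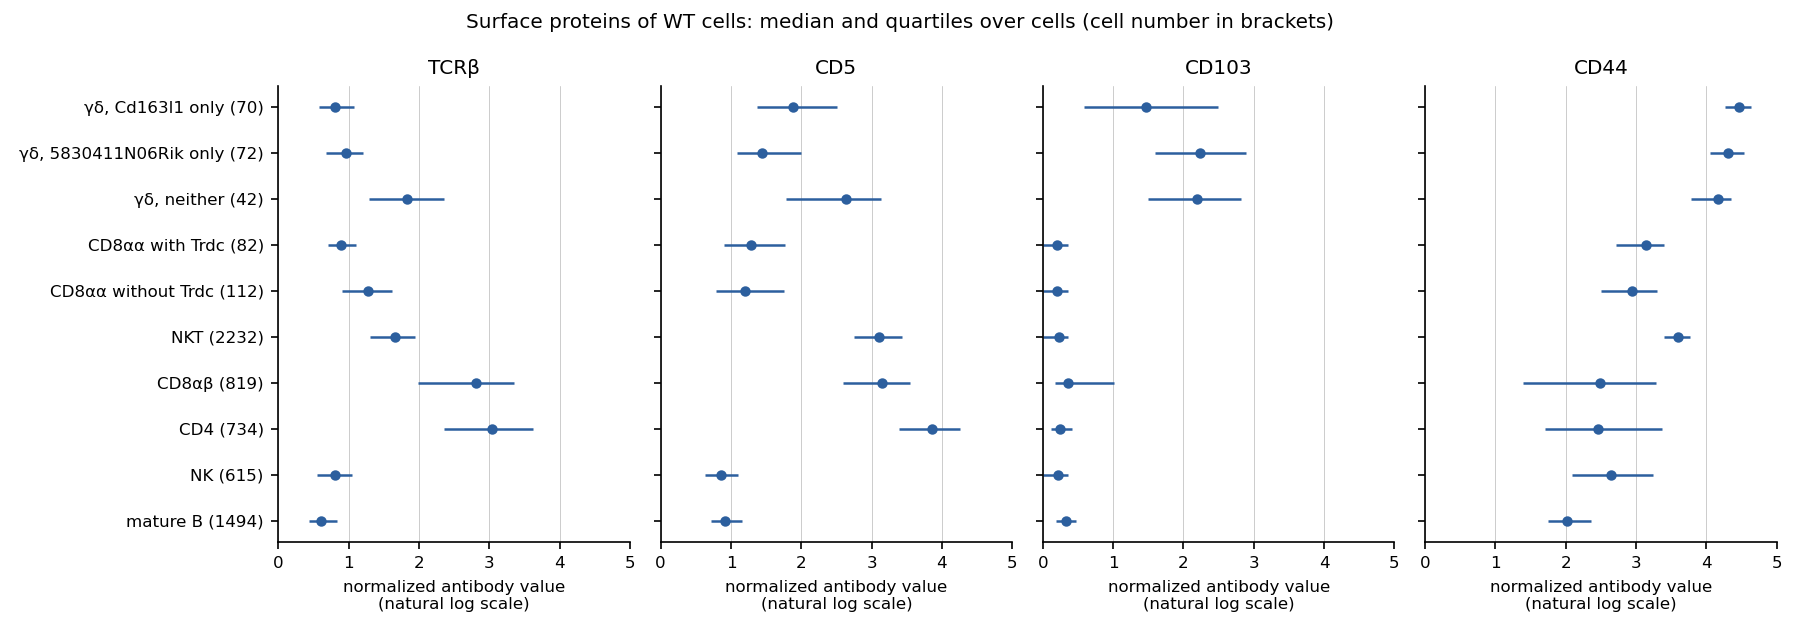
Deposited antibody values of WT cells (natural log scale) for TCRβ, CD5, CD103 and CD44, as median (point) and quartiles (bar) over cells, for 3 groups of γδ T cells and 7 other sets. CD103 is above 1.4 in the γδ groups and below 0.4 elsewhere. Within the deposited γδ T class, TCRβ is higher in the cells with neither scavenger gene, at 1.83, than in those with Cd163l1 only, at 0.81. The class name is uncertain for the cells with neither.

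Cells with at least 1 of Il17a, Cd163l1 and 5830411N06Rik were 159 of the 192. Trdc stood at 1700 CPM in these and at 186 CPM in the other 33, and Sox13 at 429.6 and 121 CPM, a log2 ratio of 1.83. Among 6531 genes counted 15.8% were higher by more than 1 on this scale. Of 25 type 17 genes 14 were higher and 11 lower in the 159 cells, with a median of 0.19 beside 0.05 over all genes. Of 12 interferon-γ type genes 8 were higher, 5 past the fold, and 4 lower, 1 past it, with a median of 0.55. Several of the 12 lie at the floor. Over all 192 cells Ifng and Eomes had 14 UMIs each, Cd27 had 13, and Tbx21 and Cd160 had 11 each. A gene with 0 UMIs in either group was placed by the 0.5 UMIs added, so these counts and their median are weak.

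Outside the γδ T class, Trdc and Tcrg-C1 were found in several cell types. In CD8αα T cells both were common in WT: Trdc was at 855 CPM in 42.3% of the 194 cells, and Tcrg-C1 at 540 CPM in 56.7%. In the 410 TG cells of this type they were at 95.1 and 172 CPM, log2 ratios of -3.17 (-3.46 to -2.88) and -1.65 (-1.90 to -1.40). WT CD8αα T cells with Trdc had a median TCRβ of 0.88 and Trac at 411 CPM, against 1.28 and 1640 CPM without Trdc. Sox13, Il17a and the scavenger genes had 0 to 3 UMIs each in CD8αα T cells of either genotype.

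In CD8αβ T cells Trdc stood at 88.6 CPM in TG (80.8 to 97.0), in 6.27% of 1020 cells, and at 70.1 CPM in WT (61.1 to 80.2), in 5.01% of 819. The log2 ratio was 0.34 (0.10 to 0.58), of the opposite sign to that in CD8αα T cells. This interval counts UMIs, of which 3 cells held 22.8% in TG and 32.1% in WT. The intervals of the shares of cells overlapped (4.87 to 7.94 in TG and 3.62 to 6.73 in WT). CD8αβ T cells held 49.9% of all TG Trdc UMIs. Cluster 12 stood highest in TG, at 250.5 CPM in 10.4% of its cells, 3 of which held 34.8% of its Trdc UMIs. The Tcrg-C1 level of CD8αβ T cells was 46.2 CPM for TG against 53.8 CPM for WT, a log2 ratio of -0.22 (-0.51 to 0.07). Median TCRβ was lower in the CD8αβ T cells with Trdc than in those without, at 1.42 and 2.79 in TG and 1.32 and 2.85 in WT.

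Tcrg-C1 was more widely detected than Trdc in NKT cells of both genotypes and in TG CD8αα T cells, where it was in 23.7% of cells and Trdc in 4.88%. The same order held in WT CD8αα T cells, WT CD4 T cells and TG NK cells. It also held in γδ T and CD8αβ T cells of both genotypes. The order was reversed in TG CD4 T cells (Tcrg-C1 in 1.68%, Trdc in 3.78%) and in WT NK cells (2.76% and 17.1%). In WT NKT cells Tcrg-C1 was in 38.7% of 2232 cells (36.7 to 40.8), at 272 CPM, and Trdc in 3.63%. In TG NKT cells Tcrg-C1 was in 29.6% of 446 cells (25.4 to 34.1), at 196 CPM, and Trdc in 3.59%, and the log2 ratio of Tcrg-C1 was -0.47 (-0.64 to -0.31). In mature B cells Tcrg-C1 was in 2.41% of WT and 1.69% of TG cells. A small B cell cluster among these, number 17, was an exception with 17.4% of 155 WT cells (11.8 to 24.3). The other WT mature B cells therefore lay below 2.41%. Of the 1494 WT mature B cells 111 were marked as doublets, and their part in this was not tested.

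Trdc without Tcrg-C1 was found in NK cells of cluster 8. There Trdc was in 26.5% of 287 WT cells (21.5 to 32.0) and in 20.9% of 153 TG cells (14.8 to 28.2), while Tcrg-C1 was in 1.05% and 3.92%. In NK cluster 3 Trdc was in 8.82% of WT and 5.32% of TG cells, and Tcrg-C1 in 4.25% and 6.46%. Cluster 11, named NK and made up of 343 TG and 22 WT cells, had Tcrg-C1 in 15.2% of TG cells (11.5 to 19.4) and Trdc in 2.04%. Over all NK cells the log2 ratio of TG over WT was -0.99 for Trdc (-1.35 to -0.63) and 1.52 for Tcrg-C1 (0.95 to 2.12), and cluster 11 was 343 of the 759 TG cells and 22 of the 615 WT cells.

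**Figure D5:**
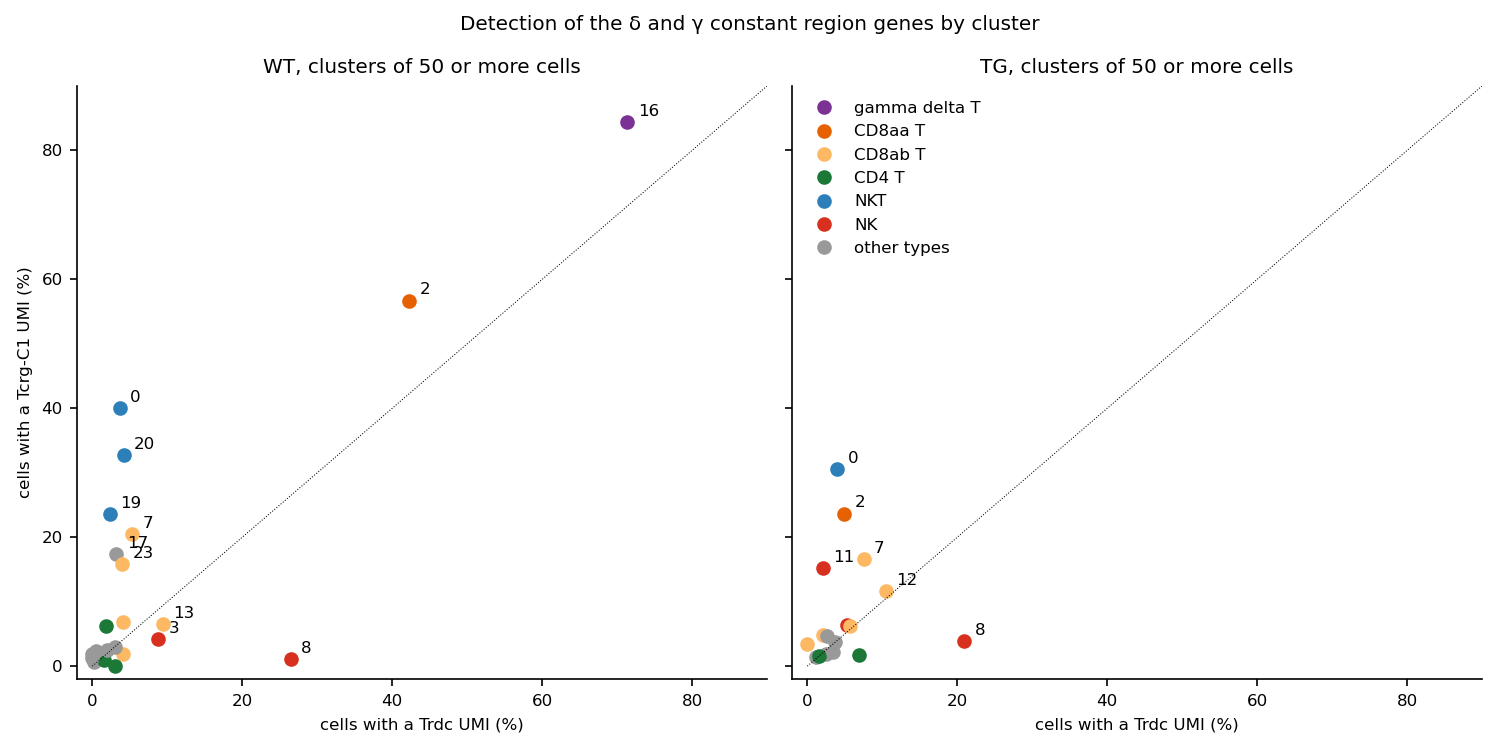
Percent of cells with a Tcrg-C1 UMI (y axis) against percent with a Trdc UMI (x axis) for clusters of at least 50 cells, WT left and TG right, coloured by cell type. In WT only clusters 16 (γδ T) and 2 (CD8αα T) are high on both axes, NKT clusters are high for Tcrg-C1 alone and NK cluster 8 for Trdc alone. The 17 TG cells of cluster 16 are too few to be drawn.

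The type 17 members outside the class were rare. In WT all 27 Il17a UMIs of CD4 T cells came from 10 cells of cluster 9, which was 3.68% of that cluster (1.78 to 6.66). The same cluster held 48 of the 64 Aqp3 UMIs of WT CD4 T cells, in 11.03% of its cells (7.57 to 15.4). In TG CD4 T cells there was 1 Il17a UMI and 4 Aqp3 UMIs, log2 ratios to WT of -3.55 (-8.91 to -0.95) and -2.80 (-4.71 to -1.37). WT CD4 T cells with Aqp3 held Ccr6 in 47.7% and Icos in 70.5%, against 7.08% and 33.0% over all WT CD4 T cells. WT mature B cells held Aqp3 in 0.870%.

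Cd163l1 and 5830411N06Rik were found in a few CD8αβ T cells, mostly of cluster 13. In TG these held more of the transcripts than the γδ T class did, with 57 of 103 Cd163l1 UMIs against 41 and 45 of 88 5830411N06Rik UMIs against 29. In WT the γδ T class held 84.0% and 82.8% of the UMIs of these genes. Cd163l1 was in 9.42% of 138 WT cells of this cluster (5.11 to 15.6) and in 6.78% of 177 TG cells (3.55 to 11.5), and 5830411N06Rik in 5.07% and 6.78%. Over all CD8αβ T cells Cd163l1 stood at 20.6 CPM in WT and 10.7 CPM in TG, a log2 ratio of -0.94 (-1.48 to -0.39), and 2 WT cells of cluster 7 held 29 of its 63 WT UMIs. In mature B cells 0.469% of WT and 0% of TG cells held Cd163l1. Median TCRβ of the Cd163l1-positive CD8αβ T cells was 2.85 in WT (19 cells) and 3.22 in TG (22 cells), beside 2.80 over all WT CD8αβ T cells. Of these cells 2 in each genotype also held 5830411N06Rik, 10.5% in WT (1.30 to 33.1) and 9.09% in TG (1.12 to 29.2), beside 1.25% (0.601 to 2.29) and 1.80% (1.07 to 2.84) of the Cd163l1-negative cells. These intervals overlap.

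Over the 21 profiles of cell type and genotype with at least 50 cells, the pattern of each gene was compared with those of 10812 genes by Pearson's r of log2(CPM + 1). The profiles share 2 libraries, and the WT γδ T profile holds the highest level of each member, so r is a description. Among the genes most like Il17a were Il1r1 (0.90) and 5830411N06Rik (0.87). Cd163l1 was most like Il17a (0.84), 5830411N06Rik (0.83) and Cryba4 (0.81), and among those most like 5830411N06Rik were Il17a (0.87) and Aqp3 (0.86). Sox13 was most like Abi3bp (0.93), Pde5a (0.89) and Il1r1 (0.85), and Aqp3 like 5830411N06Rik (0.86) and Il17a (0.85). Tcrg-C1 was closest to the γ chain genes Tcrg-C4 (0.91), Tcrg-C2 (0.89) and Trgv2 (0.88). Trdc was closest to Rpl39l (0.87), Parp16 (0.86) and Tcrg-C1 (0.86). The neighbours changed with the measure. By Spearman's rho over the same profiles Cd163l1 was most like Nono (0.84), Hira (0.82) and Thoc7 (0.80), and Il17a like Zfp386 (0.78), Actr6 (0.77) and Cd320 (0.75), while Trdc kept Parp16 (0.88) and 5830411N06Rik kept Aqp3 (0.82).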

How the data were processed

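Transcripts and antibody tags of CD45+ liver cells were captured in 2 BD Rhapsody libraries. The authors aligned reads with STAR in the BD Rhapsody pipeline, with mm10 given as the build in the submitters' processing notes, and deposited UMI counts after distribution-based error correction. They also deposited antibody values on a natural log scale (centred within each cell), the mitochondrial percent of each cell, and cell type and cluster names made in Seurat, which were used as given. The filter on cells is not stated. TG Il17a is at 0 throughout the filtered counts while the library files hold 18 UMIs for the same cells, so it was taken from the latter. For the other members the filtered and library counts were equal in every named cell.

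Counts were summed per class and genotype and given as CPM with Poisson intervals. Shares have Clopper-Pearson intervals and ratios conditional binomial intervals, at 95%. List genes needed 10 UMIs over both profiles, 0.5 UMIs were added where a profile had 0, and a log2 ratio past 1 counted as past the fold. Genes at 0 in every named cell of a genotype were left out of TG over WT. The genes named are the members, the 3 genes most like each, and the fixed lists. A listed gene that is not reported here stays in the counts and medians of its list. Members and lists were chosen with earlier results of these data known. The split by Cd163l1 and 5830411N06Rik, the threshold of 2 UMIs and the look at Cd8b1-positive cells were chosen after seeing the data. Scrublet (scanpy 1.11.5) marked 0.839% of TG and 3.31% of WT cells as doublets, 9 of the WT γδ T class, which were kept. Cells were thinned to 1000 UMIs in an alternative. The ratio calculation was tested on simulated data. Tools were Python 3.11.15, numpy 2.4.6, pandas 2.3.3, scipy 1.17.1, edgeR 4.0.16 (TMM) and matplotlib 3.10.9. The deposited log-normalized RNA values were not used here.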

Additional observations from a re-analysis of the deposited data

How the results depend on the processing

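No paired analysis was possible because each genotype was 1 library, and for the same reason no replicate could be left out. TG over WT ratios of the genes were rerun under alternatives in the γδ T class alone, and not in the other classes. There only the interval of Cd163l1 left out 0, and its ratio kept its sign. The other ratios of the class had intervals that held 0, and those of Trdc and Il17a changed sign, from 0.30 and -0.74. The γδ receptor median, which has no interval, changed sign from -0.47. The changed values are given here. Main values were WT γδ T levels, shares and co-detection, the TG over WT ratios of the class, and list medians. Of their reruns under an alternative, 97 stayed within a limit and 40 moved past it. The limit was the counting interval, or 0.1 in log2 for list medians. The reruns that stayed include those with library counts for levels, shares and ratios. These counts equal the ones used in every named cell, so such reruns could hardly move and say nothing of stability. Reruns of Il17a and Aqp3 that left no TG UMI were not counted. With ribosomal protein and mitochondrial genes left out of the total, WT γδ T levels were 1776 CPM for Trdc, 1524 for Tcrg-C1, 468 for Sox13, 410.3 for Il17a, 1233 for Cd163l1, 693 for 5830411N06Rik and 269 for Aqp3. With equal weight per cell they were 1608 for Trdc, 1330.4 for Tcrg-C1, 439 for Sox13, 377 for Il17a, 1098 for Cd163l1 and 631 for 5830411N06Rik. Without the 3 cells with most UMIs the levels of Il17a, Cd163l1 and 5830411N06Rik were 249, 885 and 474 CPM. The TG over WT log2 ratios without these cells in each genotype were -0.27 for Trdc, -0.54 for Tcrg-C1, -1.06 for Sox13, -3.23 for Cd163l1 and -2.05 for 5830411N06Rik, and for Il17a and Aqp3 no TG UMI was left. Without cells holding a B cell or myeloid UMI the ratios of Il17a and Cd163l1 were 0.15 and -1.55. Shares of WT γδ T cells thinned to 1000 UMIs were 60.5% for Trdc, 63.4% for Tcrg-C1, 33.6% for Sox13, 20.0% for Il17a, 31.2% for 5830411N06Rik and 19.7% for Aqp3. With at least 2 UMIs asked, these were 63.0%, 64.6%, 27.6%, 19.3%, 32.3% and 13.5%. The share of Cd163l1-positive cells with 5830411N06Rik was 2.67% with at least 2 UMIs, that with Il17a was 30.7% after thinning, and the share of cells with Cd163l1 only that held Trdv4 was 18.5% after thinning. With no minimum of 10 UMIs the TG over WT medians of the γδ receptor and interferon-γ type lists were 0.23 and -0.59. Relative to their size, the shares of Sox13, Il17a and Aqp3 fell most on thinning, and the 17 TG cells limit every TG value of the class.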

Other observations

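In the cells of the WT pool without a genotype name, which come from either genotype of that pool, the scavenger receptor genes lay mostly in cells with CD8 transcripts. Cd163l1 was found in 537 of 16829 cells, or 3.19% (2.93 to 3.47), and of these 92.9% held Cd8b1, the CD8β chain (90.4 to 94.9), 94.4% held Trac, 3.91% Trdc and 0.186% Sox13. In the cells without Cd163l1 Cd8b1 was in 56.3%. The 537 cells were deep, at a median of 5125 UMIs beside 2977 over all the unnamed cells of the pool. 5830411N06Rik was found in 539 cells, of which 91.3% held Cd8b1 and 5.75% Trdc. Within the 9670 unnamed cells with Cd8b1 5830411N06Rik was in 10.2% of Cd163l1-positive cells (7.70 to 13.2) and in 4.81% of the others (4.38 to 5.27). The part of depth in this was not tested. In WT γδ T cells the same shares were 10.3% and 63.2%.

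In the 5379 cells of the TG pool without a genotype name Il17a stood at 4.52 CPM (3.70 to 5.47), from 105 UMIs in 49 cells, beside 0.972 CPM in the named TG cells and 9.49 CPM in the named WT cells. 5830411N06Rik was in 76 of these cells and Cd163l1 in 19, and 0 cells held both. So few of the 5379 cells were positive that an overlap would be rare in any case. Of the 76 cells with 5830411N06Rik, 92.1% held Cd3e, 51.3% Tcrg-C1 and 11.8% Trdc. In the cells without it these shares were 63.0%, 16.0% and 4.64%. The genotype of these cells is not known.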
